A study of Homo sapiens with 4 samples.

Results

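The clustered histone genes were examined across 4 libraries of HCT116, a line derived from a human colon carcinoma. The members were chosen by their measured reads: they are the targets whose symbol begins with HIST1, HIST2, HIST3 or HIST4 and that had 10 or more reads in at least 1 library. They number 51 of the 66 such targets listed, among 20812 targets in all. By class there were 4 of 6 H1 targets, 14 of 15 H2A, 13 of 20 H2B, 10 of 12 H3 and 10 of 13 H4. Of the 15 targets left out, 5 had no read in any library. Just inside the limit lay HIST1H2BG with at most 11 reads in a library, and just outside it HIST1H2AA with at most 9. Since a maximum over libraries chose the members, 4 of them (HIST1H2AL, HIST1H3F, HIST1H2AE and HIST1H2BG) qualified through the IDO1 line alone and HIST1H1A through wild type alone.

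Histones package DNA into nucleosomes. H2A, H2B, H3 and H4 form the core particle, and H1 binds the linker DNA where it enters and leaves the core. Most clustered genes are transcribed in S phase, when new chromatin is built, and their mRNAs usually end in a stem-loop bound by SLBP rather than in a poly(A) tail. A smaller number can also make polyadenylated transcripts, which are known from differentiated or resting cells. Variants such as H2AFZ and H3F3B lie outside the clusters and are expressed through the cell cycle.

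The 4 groups were HCT116 cells overexpressing human IDO1, called the IDO1 line, with 1 mM indole, the IDO1 line with the solvent DMF, wild type HCT116 with 1 mM indole, and wild type with DMF, all for 24 h. IDO1 opens the ring of tryptophan, and indole is a bacterial product of that amino acid. Whether the IDO1 line is a clone or a pool was not given in the sources used here. RNA was read by AmpliSeq, which amplifies 1 short target per gene, and each group is 1 library, so a pair of groups has no replicate check.

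Library totals ran from 18283862 to 22736172 reads. IDO1 had 2440 and 3451 reads in the IDO1 line with indole and with DMF, against 2 and 0 in wild type with indole and with DMF. The epithelial markers EPCAM, KRT8, KRT18, CDH1 and CDX2 were present in every library, while VIL1 had at most 2 reads. Of leukocyte markers, CD14 was under 1 CPM (reads of a target scaled to a common library size) in each library, and PTPRC and CD3E had 0 reads in all. The 4 fibroblast markers listed summed to between 74.7 and 98.6 CPM per library, mostly COL1A1. The 3 endothelial markers listed summed to between 3.71 and 4.65 CPM, mostly PECAM1. Wild type with indole is the library that stood apart: over 8845 genes, principal component 1 (73.0% of the variance) placed it at 32.6, against -15.3, -13.6 and -3.69 for the IDO1 line with indole, the IDO1 line with DMF and wild type with DMF. As embryonic kidney line markers, 6 genes were listed because earlier results of these data showed them higher in the IDO1 line. All 6 had reads in both IDO1 line libraries, which that choice favours. They summed to 56.5 and 60.4 CPM there with indole and with DMF, against 0 and 0.0940 CPM in wild type with indole and with DMF.

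Promoter sequences are shown for 6 members whose levels are described below, and no result rests on these sequences. HIST1H1D, HIST1H3F and HIST1H2AL had reads almost wholly in the IDO1 line, and HIST1H2BC, HIST1H2BM and HIST1H4D were more than 2-fold lower with indole in wild type. HIST1H4A, HIST1H2BF and HIST1H3J were further below DMF than HIST1H4D there and are not shown. HIST1H4A and HIST1H3J had no matched promoter. Each line holds the 160 bases before the annotated start, 5′ to 3′, from RefSeq on GRCh38.p14. Capitals mark TATAAA (the TATA box), CCAAT (the CCAAT box, bound by NF-Y) and ATGCAAAT (the octamer bound by OCT1), searched on both strands.
HIST1H1D (chr6:26234988-26235147, minus strand): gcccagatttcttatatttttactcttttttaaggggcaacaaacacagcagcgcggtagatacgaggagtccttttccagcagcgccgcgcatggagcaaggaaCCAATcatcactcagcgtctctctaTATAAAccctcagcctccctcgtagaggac
HIST1H3F (chr6:26250636-26250795, minus strand): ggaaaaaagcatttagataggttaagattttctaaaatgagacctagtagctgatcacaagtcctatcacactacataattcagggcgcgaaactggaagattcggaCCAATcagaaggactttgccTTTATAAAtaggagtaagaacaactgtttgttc
HIST1H2AL (chr6:27865157-27865316, plus strand): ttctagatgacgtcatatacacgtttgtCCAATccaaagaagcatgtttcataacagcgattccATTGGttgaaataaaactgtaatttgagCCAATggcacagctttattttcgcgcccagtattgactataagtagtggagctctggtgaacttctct
HIST1H2BC (chr6:26123927-26124086, minus strand): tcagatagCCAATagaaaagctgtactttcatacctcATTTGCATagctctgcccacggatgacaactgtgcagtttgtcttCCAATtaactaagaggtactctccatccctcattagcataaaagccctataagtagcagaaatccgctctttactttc
HIST1H2BM (chr6:27814862-27815021, plus strand): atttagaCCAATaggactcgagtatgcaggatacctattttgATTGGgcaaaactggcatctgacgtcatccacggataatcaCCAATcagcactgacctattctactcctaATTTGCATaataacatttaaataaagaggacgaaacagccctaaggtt
HIST1H4D (chr6:26189113-26189272, minus strand): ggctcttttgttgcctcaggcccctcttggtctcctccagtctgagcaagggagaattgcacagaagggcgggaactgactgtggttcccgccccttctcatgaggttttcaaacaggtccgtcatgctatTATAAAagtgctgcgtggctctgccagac

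The 300 base promoter windows of RefSeq were matched for 47 members. CCAAT was found in 40 of the 47 member windows (85.1%), against 34.6% of all 35116 promoter windows. By class it was in each of the 4 H1, 13 H2A, 13 H2B and 9 H3 windows and in 1 of 8 H4 windows. TATAAA was found in 34 member windows (72.3%, against 11.5% of all promoters). ATGCAAAT was in 10 H2A and 9 H2B windows, 1 H3 window and no H1 or H4 window, against 1.77% of all promoters. Neighbouring H2A and H2B genes share part of their windows, so these matches are not independent. In HIST1H3F the marked run TTTATAAA is an overlap of TATAAA on both strands. A match describes the letters and not a bound site.

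How far reads were spread over members varied by class. The 2 leading targets held 99.2% of H1 reads and 86.6% of H3 reads, against 66.6% for H2B, 60.6% for H4 and 51.6% for H2A. HIST1H4C had the most reads, 9.16% of all histone reads over the 4 libraries, followed by HIST2H2BE with 8.95% and HIST1H3B with 7.90%. The leading H1 target was HIST1H1E, a linker histone, and the leading H2A target was HIST1H2AM. Targets are amplified with unknown and unequal efficiency, so these shares rank reads and not transcripts. In all, 37 members reached 10 CPM in at least 1 library, 26 reached 100 CPM and 9 reached 1000 CPM, while 14 stayed under 10 CPM throughout. Of the 37, 31 had their lowest level in wild type with indole and 24 their highest in the IDO1 line with DMF. The shares over all genes were not computed, and wild type with indole stood apart over all genes too.

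**Figure D1:**
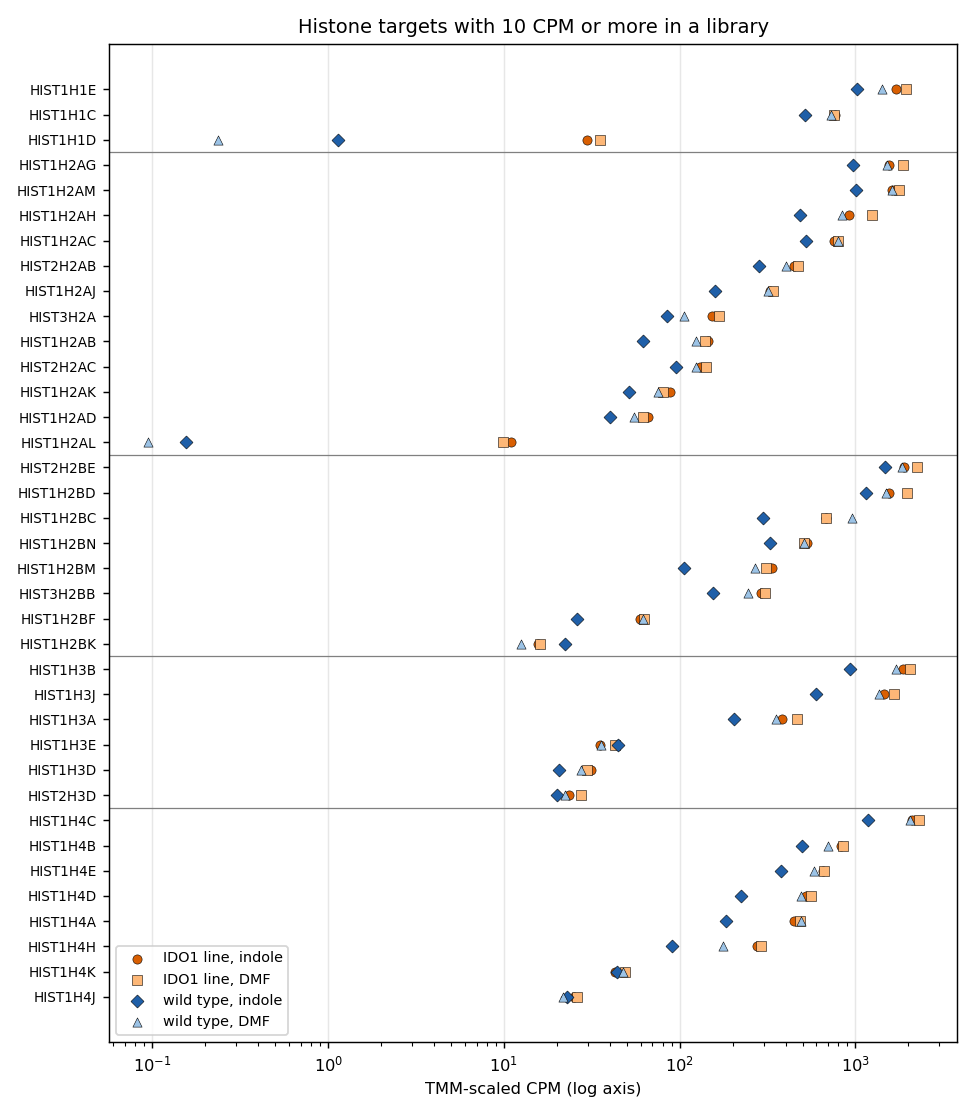
Level of each of the 37 histone targets with 10 CPM or more in a library, in TMM-scaled CPM on a log axis, by class and library (1 library per marker). Most targets have their lowest marker in wild type with indole, and HIST1H1D and HIST1H2AL lie far lower in both wild type libraries than in the IDO1 line.

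Wild type cells given indole had lower histone levels in every class. Histone reads made up 1.41% of the library with indole, against 2.02% with DMF. After TMM scaling, the sum over the 51 members was 13318 CPM with indole and 21549 CPM with DMF, 1.62-fold lower (1.61 to 1.63). Intervals here and below are 95% Clopper-Pearson intervals of counting error only, and they compare 2 libraries. In the IDO1 line the same sum was 22765 CPM with indole and 25361 CPM with DMF, 1.11-fold lower (1.11 to 1.12). The difference between the lines' responses was not tested, as each group has 1 column of counts. Fewer cells in S phase and less histone RNA per cell cannot be told apart in bulk RNA.

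By class, the H3 sum was lowest relative to DMF in wild type, with 1820 CPM with indole and 3506 CPM with DMF, 1.93-fold lower (1.90 to 1.95). H4 was 1.73-fold lower (1.71 to 1.75), H2A 1.59-fold (1.57 to 1.60), H2B 1.51-fold (1.497 to 1.526) and the linker H1 1.39-fold (1.37 to 1.41). The median log2 ratio of the members compared gave another order, with H4 at -0.70, H2B -0.65, H2A -0.62, H3 -0.59 and H1 -0.48. The order of the H2A and H2B sums turned round when the target with the most reads was left out of each class, a check added after the values were seen. The ratio of summed CPM, indole over DMF, was then 0.496 for H3, against 0.519 with all targets, 0.586 for H2B, against 0.662, and 0.632 for H2A, against 0.631. In the IDO1 line the classes lay between 1.06-fold lower (1.05 to 1.07) for H4 and 1.14-fold lower (1.13 to 1.15) for H2A. The H1 sum was 1.09-fold lower there (1.08 to 1.11), but without HIST1H1E its ratio was 1.01, on the other side of 1.

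**Figure D2:**
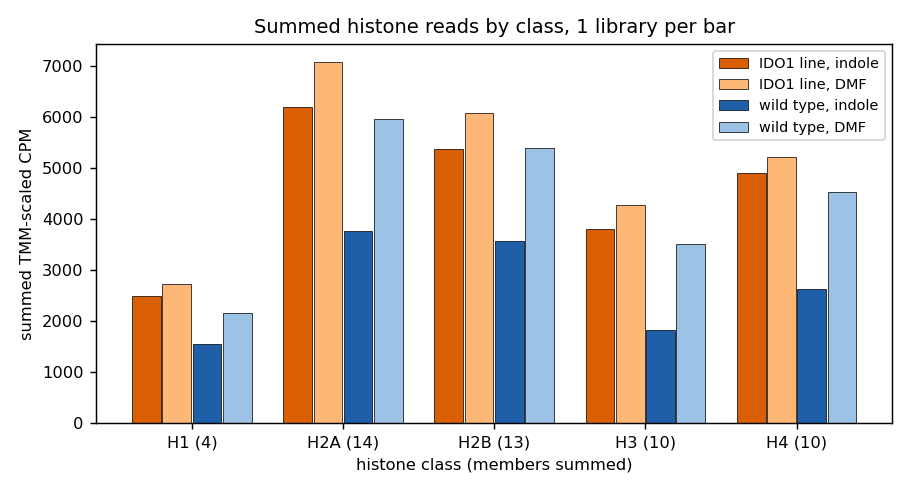
Summed TMM-scaled CPM of each histone class, with 1 bar per library and the number of members summed in brackets. In each class the bar of wild type with indole is the lowest, at 1820 CPM for H3 against 3506 CPM in wild type with DMF.

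On the scale of log2(CPM + 1), 4671 of all 8679 genes compared were lower with indole in wild type. Of the 35 members with 10 CPM or more in either wild type library, 32 were lower with indole and 3 higher. At least 2-fold lower were 6 (HIST1H2BC, HIST1H4A, HIST1H2BM, HIST1H2BF, HIST1H3J and HIST1H4D), where the background over 8679 genes was 1.54%. None was at least 2-fold higher, where the background was 1.36% (0.726% among genes with 100 CPM or more). The members' median log2 ratio was -0.63, against -0.04 for all genes, whose middle 50% lay between -0.33 and 0.24. Abundant genes were lower as a whole in this comparison: among 2066 genes with 100 CPM or more the median was -0.21 and 3.15% were at least 2-fold lower, while the 26 members at that level had a median of -0.67 with 5 at least 2-fold lower.

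HIST1H2BC, an H2B gene, had 296 CPM with indole and 952 CPM with DMF in wild type, 3.21-fold lower (3.12 to 3.31). In the IDO1 line it had 681 and 677 CPM with indole and with DMF. Its level with indole in wild type was thus the lowest of the 4, and both IDO1 line values lay between the wild type values. HIST1H4A, an H4 gene, had 183 CPM with indole and 489 CPM with DMF in wild type, 2.68-fold lower (2.58 to 2.78). Its levels in the IDO1 line were 447 and 483 CPM with indole and with DMF, close to wild type with DMF. HIST1H2BM had 106 CPM with indole and 269 CPM with DMF in wild type, 2.54-fold lower (2.41 to 2.67), and 333 and 311 CPM in the IDO1 line with indole and with DMF. The other 3 were HIST1H2BF at 2.35-fold lower (2.12 to 2.61), HIST1H3J at 2.27-fold (2.22 to 2.32) and HIST1H4D at 2.20-fold (2.13 to 2.28). The H2A genes HIST1H2AJ and HIST1H2AB came next, HIST1H2AB with 61.9 CPM with indole and 123 CPM with DMF, and did not reach 2-fold with the pseudocount.

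Of the 2 targets with most reads in each class, all but HIST1H3J were lower by under 2-fold. HIST1H4C had 1183 CPM with indole and 2030 CPM with DMF in wild type, 1.72-fold lower (1.69 to 1.74). HIST2H2BE had 1481 CPM with indole and 1831 CPM with DMF, 1.24-fold lower (1.22 to 1.26). The abundant linker histone HIST1H1E had 1025 CPM with indole and 1424 CPM with DMF, and HIST1H1C 519 CPM with indole and 723 CPM with DMF, each 1.39-fold lower. The interval was 1.36 to 1.41 for HIST1H1E and 1.36 to 1.43 for HIST1H1C. HIST1H3B was 1.84-fold lower (1.81 to 1.87), while HIST1H2AM was 1.60-fold, HIST1H2AG 1.54-fold and HIST1H4B 1.40-fold lower. Within H2B the members ran from -1.68 to 0.79 in log2 ratio and within H2A from -1.0 to -0.33, so H2B members were more spread among themselves.

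The 3 members higher with indole in wild type were HIST1H2BK, HIST1H3E and HIST1H4J, all at low levels. HIST1H2BK had 22.4 CPM with indole and 12.6 CPM with DMF, 1.78-fold higher (1.53 to 2.08), and 15.7 and 16.0 CPM in the IDO1 line with indole and with DMF. HIST1H3E had 44.4 CPM with indole and 35.5 CPM with DMF in wild type, 1.25-fold higher (1.13 to 1.38). HIST1H4J had a ratio of 1.05 (0.918 to 1.20), which includes 1. Below 10 CPM, HIST3H3, a testis H3 gene, had 88 reads with indole and 40 with DMF in wild type, 2.42-fold higher (1.65 to 3.61). HIST1H4J and HIST3H3 were chosen after their values were seen.

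The list of 7 histone genes known to make polyadenylated transcripts (HIST1H1C, HIST1H2AC, HIST1H2BC, HIST1H2BD, HIST1H2BJ, HIST1H2BK and HIST2H2BE) holds the lowest and the highest log2 ratio among the 35 members compared in wild type, HIST1H2BC and HIST1H2BK. Its summed level was 3989 CPM with indole and 5821 CPM with DMF, 1.46-fold lower (1.45 to 1.47), while the other 44 members were 1.69-fold lower (1.68 to 1.70). The 6 list members compared had a median log2 ratio of -0.43 and the 29 other members compared -0.64. HIST1H2AC had 522 CPM with indole and 800 CPM with DMF, 1.53-fold lower (1.497 to 1.572), and HIST1H2BD was 1.31-fold lower (1.28 to 1.33). HIST1H2BJ had 31 reads with indole and 37 with DMF. Whether the targets read stem-loop or polyadenylated transcripts was not given in the sources used here.

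Many H2A and H2B genes stand head to head, and members of a pair did not always have like ratios. In GENCODE 29, 11 such pairs are annotated with 219 to 331 bases between the genes, and 10 have both genes among the members. HIST1H2BC had a log2 ratio of -1.68 with indole in wild type, against -0.62 for its partner HIST1H2AC. HIST1H2BK had 0.79 and its partner HIST1H2AH -0.81. In the pair of HIST1H2BM and HIST1H2AJ the values were -1.34 and -1.0, and in that of HIST2H2BE and HIST2H2AC -0.31 and -0.37.

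**Figure D3:**
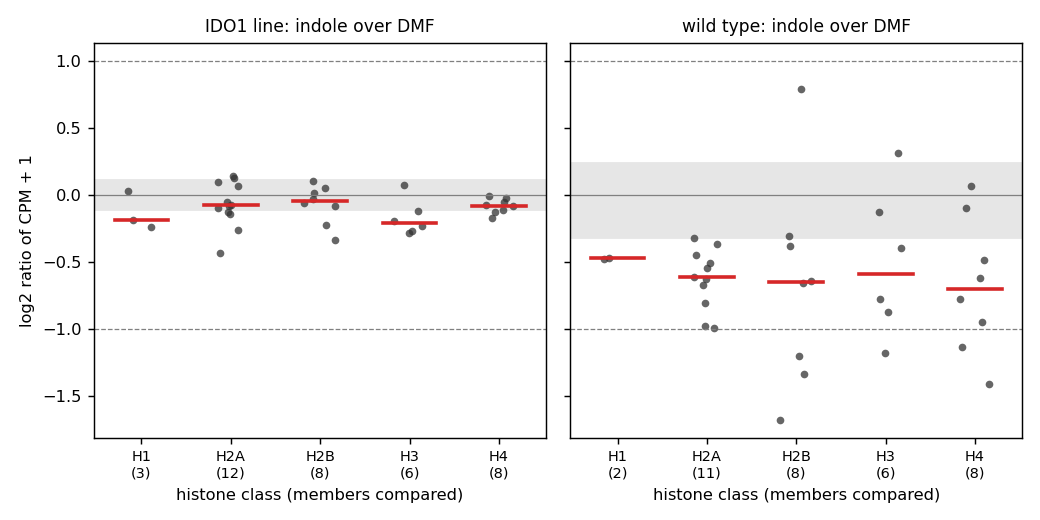
Log2 ratio of CPM + 1, indole over DMF, of each histone member with 10 CPM or more in either library, by class, in the IDO1 line (left) and wild type (right). Red bars are medians, grey bands the middle 50% of all genes, and dashed lines 2-fold, and the wild type members lie mostly below the band with H2BC lowest at -1.68.

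In the IDO1 line with indole, none of 37 members was at least 2-fold apart from DMF, where the background over 8523 genes was 0.0469% higher and 0.0352% lower (0.051% in each direction among genes with 100 CPM or more). Of all 8523 genes, 4367 were below 0. The members' median log2 ratio was -0.08, against -0.01 for all genes, with 28 members below 0 and 9 above. The furthest was HIST1H2AH, with 915 CPM with indole and 1238 CPM with DMF, 1.35-fold lower (1.33 to 1.38). HIST1H2BD was 1.26-fold lower (1.24 to 1.28), HIST1H3E 1.23-fold (1.11 to 1.36), HIST1H3A 1.21-fold (1.17 to 1.25) and HIST1H2AG 1.20-fold (1.18 to 1.22). HIST2H2BE, HIST2H3D and HIST1H1D, also among the 8 furthest, were 1.17-fold (1.16 to 1.19), 1.18-fold (1.05 to 1.34) and 1.19-fold (1.07 to 1.33) lower. All 8 H4 members compared were below 0, between -0.18 and -0.01. These intervals omit variation between cultures, which was not measured.

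An additive model over both lines tested the indole effect averaged over the lines, which does not require a change in each line. With edgeR (quasi-likelihood), 0 of 49 members tested passed the adjusted threshold of 0.05. At the adjusted threshold the background was 0% of 13122 genes in either direction. An unadjusted p under 0.05 was found for 9 of the 49 members (18.4%), against 448 of all genes (3.41%). Of the 9, HIST3H3 had a positive log2 fold change of 0.86, and the others were negative. The difference between these shares was not tested. DESeq2 also called 0 members, with 7 at an unadjusted p under 0.05. The lowest unadjusted p was that of HIST1H4A, with a log2 fold change of -0.76 (SE 0.284) and an adjusted p of 0.9997 from edgeR. The SE of these fits is approximate, back-calculated from the test statistic. The fit leaves 1 residual degree of freedom, which holds the difference between the lines' responses, and the labels do not state separate cultures.

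Genes of DNA replication and chromatin assembly were set beside the histones. In wild type, 4671 of all 8679 genes were lower with indole, which is the background for the counts of lower genes in these lists. Of 22 S phase genes compared in wild type, all 22 were lower with indole, 2 of them at least 2-fold, with a median log2 ratio of -0.64. RFC2, a subunit of the clamp loader, was 2.50-fold lower (2.31 to 2.72) and TYMS, thymidylate synthase, 2.22-fold (2.15 to 2.29). Of the replicative helicase, CDC45 was 1.98-fold lower (1.82 to 2.17) and MCM6 1.93-fold (1.84 to 2.02). In the IDO1 line 18 of 23 S phase genes lay above 0, with a median of 0.09, where the histone members had -0.08. Of all 8523 genes, 4156 lay above 0 there.

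Of 10 histone variants compared in wild type, all 10 were lower with indole, with a median of -0.57 and 1 at least 2-fold lower. That was CENPA, the centromeric H3, at 2.48-fold lower (2.12 to 2.91). H2AFX, the variant phosphorylated at DNA breaks, was 1.90-fold lower (1.84 to 1.98), H2AFZ 1.61-fold (1.57 to 1.65) and the linker histone H1FX 1.61-fold (1.52 to 1.71). Of 20 histone chaperones and assembly factors, 15 were lower and 5 higher, with a median of -0.42. HJURP, the chaperone of CENPA, was 1.96-fold lower (1.88 to 2.04), SSRP1, a subunit of FACT, 1.79-fold (1.74 to 1.84), HAT1, which acetylates new H4, 1.76-fold (1.56 to 1.98) and IPO4, an importin that carries H3 and H4, 1.63-fold (1.53 to 1.74).

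The list of histone gene transcription and mRNA 3′ end processing had a median of -0.39 in wild type over 14 genes, 12 lower and 2 higher with indole, none by 2-fold. CSTF2, a subunit of the cleavage stimulation factor, was 1.68-fold lower (1.57 to 1.80), and its paralog CSTF2T 1.65-fold (1.504 to 1.815). LSM10, of the U7 snRNP that directs histone mRNA cleavage, was 1.66-fold lower (1.44 to 1.91), and ZNF473, a U7-associated zinc finger protein, 1.58-fold (1.34 to 1.87). In the IDO1 line the variants, the chaperones and this list had medians of -0.04, 0.06 and 0.02, with no gene at least 2-fold apart. No gene of these 4 lists passed in either additive fit.

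**Figure D4:**
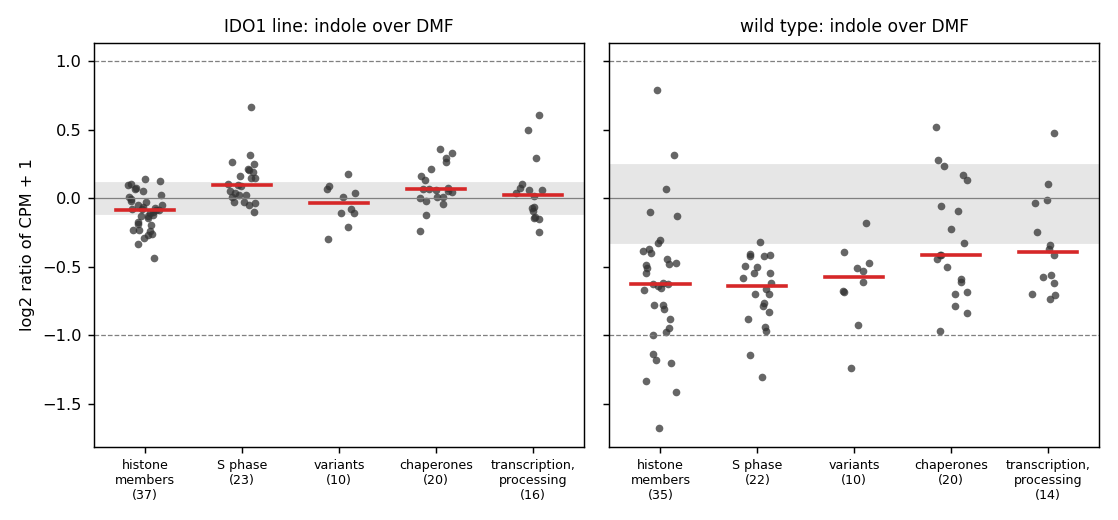
Log2 ratio of CPM + 1, indole over DMF, of the histone members and of 4 gene lists in the IDO1 line (left) and wild type (right), with the number of genes compared in brackets. Red bars are medians and grey bands the middle 50% of all genes, and in wild type the medians run from -0.64 for S phase genes to -0.39 for transcription and processing.

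The IDO1 line had more histone reads than wild type with either treatment. In DMF, the sum was 25361 CPM in the IDO1 line and 21549 CPM in wild type, 1.18-fold higher (1.17 to 1.18). By class it was between 1.13-fold higher (1.12 to 1.14) for H2B and 1.27-fold (1.25 to 1.28) for H1. Without the most-read target of each class, the ratio was 1.09 for H1 and 1.08 for H2B, so the place of H1 as the highest class rests on HIST1H1E. Of all 8500 genes compared, 4111 were higher in the IDO1 line. Of 36 members compared, 32 were higher and 4 lower in the IDO1 line, with a median log2 ratio of 0.22, against -0.01 for all genes. HIST1H1D alone was at least 2-fold higher, where the background over 8500 genes was 0.282%, and none was 2-fold lower, where it was 0.165% (0.149% in each direction among genes with 100 CPM or more, with 0 of 26 members). HIST1H1D reached 10 CPM here only in the IDO1 line. S phase genes had a median of 0.09 in this comparison over 23 genes, none at least 2-fold apart.

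Smaller differences in DMF were those of HIST3H2A, HIST1H2AH and HIST1H1E. HIST3H2A had 168 CPM in the IDO1 line and 106 CPM in wild type, 1.58-fold higher (1.502 to 1.668). HIST1H2AH had 1238 CPM in the IDO1 line and 842 CPM in wild type, 1.47-fold higher (1.442 to 1.497), and HIST1H1E was 1.36-fold higher (1.34 to 1.38). HIST1H3A and HIST1H2BD were both 1.31-fold higher (1.27 to 1.35 and 1.29 to 1.32). HIST1H2BC went the other way, with 677 CPM in the IDO1 line and 952 CPM in wild type, 1.41-fold lower (1.38 to 1.44).

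In indole, the sum was 22765 CPM in the IDO1 line and 13318 CPM in wild type, 1.71-fold higher (1.70 to 1.72). Of the class sums, H3 was the furthest apart at 2.09-fold (2.07 to 2.12). The median log2 ratio of the members compared was 0.81 for H4, 0.79 for H2B, 0.74 for H3, 0.73 for H2A and 0.72 for H1. Of all 8765 genes compared, 4631 were higher in the IDO1 line. Of 37 members, 34 were higher, 12 of them at least 2-fold, where the background over 8765 genes was 2.28%. None was 2-fold lower, where it was 2.22%. HIST1H1D and HIST1H2AL, both among the 12, reached 10 CPM here only in the IDO1 line. HIST1H2AL also became a member only through its IDO1 line reads, so its place here was favoured by the choice. Among genes with 100 CPM or more, 9 of 26 members were at least 2-fold higher against 3.09% of 2071 genes, and 0 were lower against 2.03%. The median log2 ratio was 0.76, against 0.03 for all genes, and S phase genes had 0.83 with 6 of 23 at least 2-fold higher. This comparison shares the wild type indole library, which stands apart, with the indole comparison in wild type. All 6 members at least 2-fold lower there are among the 12 here, and HIST1H2AB, HIST1H2AJ, HIST1H3B, HIST1H4H, HIST1H1D and HIST1H2AL make up the rest. The furthest apart in indole after HIST1H1D and HIST1H2AL were HIST1H2BM at 3.14-fold higher (2.99 to 3.31), HIST1H4H, and HIST1H4A at 2.45-fold (2.35 to 2.54). HIST1H3J was 2.43-fold higher, HIST1H4D 2.35-fold and HIST1H2AB 2.35-fold, followed by HIST1H2BC at 2.30-fold.

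An additive model over both treatments tested the line difference averaged over the treatments, which does not require a difference in each treatment. Under the quasi-likelihood test of edgeR, 5 of 49 members rose in the IDO1 line and 0 fell, where the background over 13122 genes was 2.03% and 0.419%. They were HIST1H1D, HIST1H2AL, HIST1H3F, HIST1H2AE and HIST1H4H, each higher in both treatments. HIST1H2AL, HIST1H3F and HIST1H2AE entered the set through their IDO1 line reads, so their presence among the members already required high values there. The embryonic kidney markers given above were chosen for being higher in the IDO1 line, and their part in these differences was not tested. With DESeq2, also adjusted over all genes, HIST1H3F and HIST1H2AE missed the threshold (adjusted p 0.803 and 0.835).

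HIST1H1D encodes the linker histone H1.3. It had 566 and 802 reads in the IDO1 line with indole and with DMF, against 22 and 5 in wild type with indole and with DMF. These are 29.6 and 35.1 CPM in the IDO1 line, and 1.14 and 0.235 CPM in wild type. The lines did not overlap, and within wild type the indole library was the higher, 4.84-fold (1.79 to 16.3). The IDO1 line was 26.02-fold higher in indole (17.0 to 41.8) and 150-fold in DMF (63.8 to 462). The additive log2 fold change was 5.61 (SE 0.394, adjusted p 5.5e-11 from edgeR). Its H1 relatives HIST1H1E and HIST1H1C had at least 10036 reads in every library. The other H1 targets listed had few reads in both lines, with at most 13 in a library for HIST1H1A and at most 2 for HIST1H1B and HIST1H1T.

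HIST1H2AL, an H2A gene, had 211 and 226 reads in the IDO1 line with indole and with DMF, against 3 and 2 in wild type with indole and with DMF. The IDO1 line was 71.1-fold higher in indole (24.0 to 348) and 105-fold in DMF (28.8 to 875), with an additive log2 fold change of 6.33 (SE 0.488, adjusted p 3.7e-10 from edgeR). HIST1H3F, an H3 gene, had 99 and 97 reads in the IDO1 line with indole and with DMF and 0 in both wild type libraries. Against a floor of 3 reads per library it was at least 33.4-fold higher in indole and at least 30.1-fold in DMF, with an adjusted p of 7.6e-08 from edgeR. Both genes had near-equal reads with and without indole in the IDO1 line, with ratios of 1.11 (0.918 to 1.35) and 1.22 (0.910 to 1.63).

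HIST1H2AE had 20 and 22 reads in the IDO1 line with indole and with DMF, against 3 and 1 in wild type with indole and with DMF. These counts are few: the IDO1 line was 6.74-fold higher in indole (1.999 to 35.4) and 20.5-fold in DMF (3.31 to 846), with an adjusted p of 0.0250 from edgeR. HIST1H4H, an H4 gene, differed from the other 4 in having at least 1749 reads in every library. It had 275 and 290 CPM in the IDO1 line with indole and with DMF, against 90.4 and 175 CPM in wild type with indole and with DMF. It was 3.04-fold higher in indole (2.88 to 3.21) and 1.65-fold in DMF (1.59 to 1.72), with an additive log2 fold change of 1.16 (SE 0.252, adjusted p 0.00574 from edgeR).

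The 5 genes do not form an unbroken block on chromosome 6, but all except HIST1H2AL lie near each other. In the order of the 55 HIST1 targets placed there, HIST1H2AE, HIST1H1D, HIST1H3F and HIST1H4H are numbers 25, 27, 30 and 34, and HIST1H2AL is number 49. Between HIST1H1D and HIST1H4H lie HIST1H4F, HIST1H4G, HIST1H2BH, HIST1H3G and HIST1H2BI, none of which reached 10 reads in any library. HIST1H3E, which stands between HIST1H2AE and HIST1H1D, had 35.1 and 43.1 CPM in the IDO1 line with indole and with DMF, against 44.4 and 35.5 CPM in wild type with indole and with DMF. HIST1H2BG, the head-to-head partner of HIST1H2AE, had 11 and 3 reads in the IDO1 line with indole and with DMF, against 1 and 3 in wild type with indole and with DMF.

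**Figure D5:**
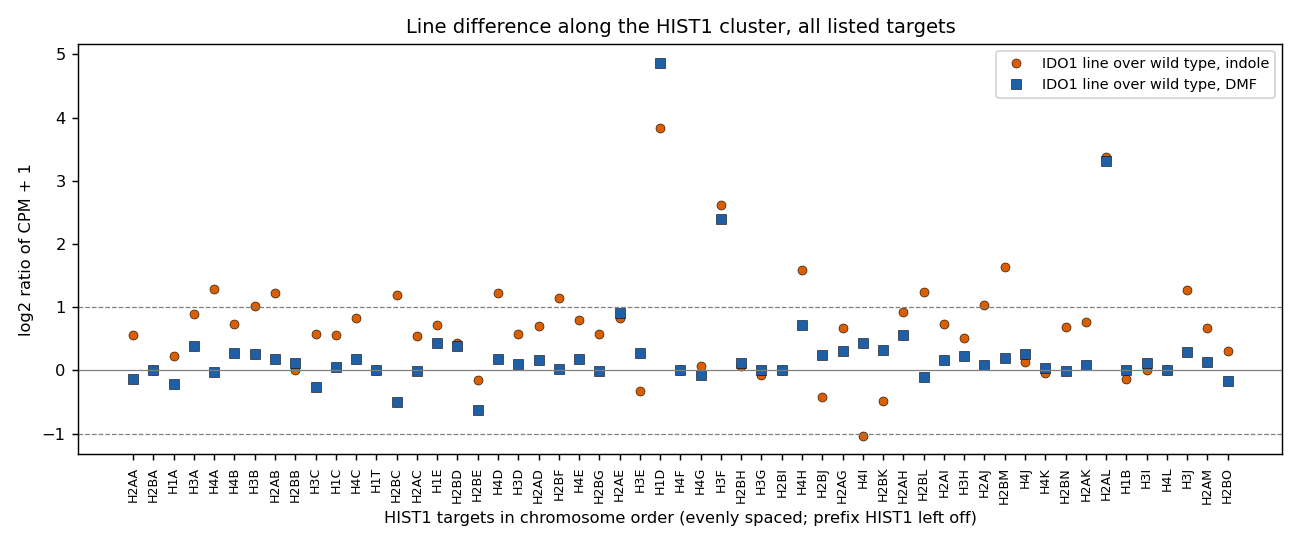
Log2 ratio of CPM + 1, IDO1 line over wild type, in indole (circles) and in DMF (squares), for every listed HIST1 target in its order along chromosome 6, evenly spaced. Dashed lines mark 2-fold, and HIST1H1D, HIST1H3F and HIST1H2AL stand above the rest in both treatments.

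Near-identical copies limit how far single targets can be told apart. In the files, 30 of the 51 members carry an annotation entry that joins several gene IDs, against 845 of all 20812 targets. Only the longest protein-coding GENCODE 29 transcript of each member was used for the comparison of sequences. Between these, the longest exact run that a member shared with another member had a median of 50 bases. In all, 6 members shared 100 bases or more. The pair of HIST1H2AI and HIST1H2AJ shared 332 bases, the pair of HIST1H4J and HIST1H4K 312, and the pair of HIST1H2BE and HIST1H2BN 104. The values of these 6 are uncertain. For HIST1H1D, HIST1H4H, HIST1H2AE, HIST1H3F and HIST1H2AL the runs were 26, 28, 32, 41 and 56 bases. Other transcripts were not compared, so these runs can miss sharing between genes whose annotated spans overlap. The annotated span of HIST1H2BN holds HIST1H2AL on the same strand and HIST1H2AK on the other, and HIST1H3J overlaps HIST1H2AM. HIST1H2BN had 527 and 509 CPM in the IDO1 line with indole and with DMF, against 328 and 512 CPM in wild type with indole and with DMF. Whether HIST1H2BN transcripts added reads to HIST1H2AL was not tested.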

How the data were processed

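The deposited files hold raw counts of reads per AmpliSeq target, 1 target per gene and 1 count column per group, per the file headers and the labels' protocols. The genome build is hg19 per the submitters' processing notes, and the aligner, the counter and whether replicates were pooled are not given in the sources used here. Replicates are stated in the design text, but each file has 1 column, so each group was treated as 1 library. TMM factors over the 4 libraries scaled the counts (edgeR 4.0.16, R 4.3.3). Log2 ratios used CPM plus a pseudocount of 1, for genes with 10 CPM or more in either library, and "compared" means these genes. Folds of single targets and sums use no pseudocount, with 95% Clopper-Pearson intervals that cover counting error only, since PCR reads are not independent molecules. A count of 0 was given a floor of 3 reads, 0.131 to 0.157 CPM. The additive fits kept genes passing filterByExpr, tested them by quasi-likelihood in edgeR and adjusted over all genes (Benjamini-Hochberg), so a p-value reflects only how these libraries vary. The steps were tested on simulated data. Members, lists and tests were chosen with earlier results of these data known. Named were the 2 targets of each class with the most reads, the 8 furthest members of each pairwise comparison, members past the additive threshold, the polyadenylated list and the 4 furthest genes of each other list in wild type. Promoters came from RefSeq (GRCh38.p14) and gene order from GENCODE 29, not in the build of the files, and no coordinates were converted.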

Additional observations from a re-analysis of the deposited data

Results flagged for a closer look

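Some members had log2 ratios of scaled CPM, without pseudocount, on opposite sides of 0 in the same comparison, and none of these differences was tested. With indole over DMF this was so for 11 of the 35 members compared in both lines. HIST1H2BC had 0.01 in the IDO1 line and -1.68 in wild type, HIST1H2BM 0.10 and -1.34, and HIST1H2AB 0.07 and -0.99, in the same order. Smaller in wild type were HIST1H2BN (0.05 in the IDO1 line and -0.65 in wild type), HIST1H2AK (0.13 and -0.56), HIST1H1C (0.02 and -0.48), HIST1H2AD (0.10 and -0.46) and HIST1H3D (0.08 and -0.42). The other way round were HIST1H2BK (-0.03 in the IDO1 line and 0.83 in wild type), HIST1H3E (-0.30 and 0.32) and HIST1H4J (-0.05 and 0.07). For the IDO1 line over wild type it was so for 7 of 36 members. HIST1H4A had 1.29 in indole and -0.02 in DMF, HIST1H2BC 1.20 and -0.49, HIST1H2BN 0.69 and -0.01, and HIST1H2AC 0.54 and -0.0013, in the same order. HIST1H2BK had -0.51 in indole and 0.35 in DMF, HIST1H3E -0.34 and 0.28, and HIST1H4K -0.04 and 0.03. Each comparison uses the library of wild type with indole on 1 side, and many of these values are near 0. The share of all genes on opposite sides of 0 was not computed, so these counts have no background.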

How the results depend on the processing

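When libraries were scaled by their totals, the median of all genes in wild type, indole over DMF, was 0.14, against -0.04 with TMM, and the split of all genes at least 2-fold apart became 248 higher and 75 lower. The members' median there was -0.45 with 5 at least 2-fold lower, HIST1H4D being just under at -0.96, and the ratio of summed histone reads 0.697, against 0.618 with TMM. The same change gave a median of 0.32 and a ratio of 1.26 for the line in DMF, and a ratio of 1.62 for the line in indole, where HIST1H2AJ (0.96) and HIST1H3B (0.94) left the 12 members. Median-of-ratios factors gave 0.614 for the sum in wild type. Leaving out HIST1H4C gave 0.622 there and 1.18 for the line in DMF. A minimum of 1 CPM gave 3 of 47 members at least 2-fold higher for the line in DMF, beside 211 of all genes, against 24 with the main minimum. It gave 1 of 48 members lower in indole (HIST1H4I), beside 338 of all genes. A minimum of 50 CPM gave 0 of 29 members higher in DMF, beside 5 of all genes. In the additive line fit, 9 of 49 members rose with library totals, where 384 of 13122 genes were called in either direction. With DESeq2 it was 3 of 51 members and 86 of 16748 genes. With at least 10 CPM in 2 libraries it was 3 of 36 members and 76 of 8469 genes, and HIST1H2BM joined HIST1H1D and HIST1H4H. Leaving out a library leaves the additive fits no residual degree of freedom. No paired analysis was possible because the labels give no replicate numbers. Depth limits members with few reads, such as HIST1H2AE. The sums of classes without their most-read target were chosen after seeing the data.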
